A study of Mus musculus with 12 samples.

Results

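The genes of oxidative phosphorylation were described in mouse plasma cells. They are the subunits of the respiratory chain and of the ATP synthase, encoded by nuclear and by mitochondrial DNA. They were chosen by symbol from a table of 14219 genes. Symbols beginning with Nduf, Uqcr, Cox4 to Cox8 or Atp5, the symbols Sdha, Sdhb, Sdhc and Sdhd, and the mitochondrial symbols mt-Nd, mt-Co, mt-Cytb and mt-Atp were taken. The pseudogene Atp5k-ps2 was left out by its name. The rule found 96 genes of the 14219, of which 88 were nuclear and 8 mitochondrial. Complex I had 42 of them (36 nuclear), complex II had 4, complex III had 9 (8 nuclear), complex IV had 17 (16 nuclear) and complex V had 15. A further 7 were complex I assembly factors (Ndufaf1 to Ndufaf7) and 2 were the ATP synthase-related genes Atp5s and Atp5sl. The mitochondrial genes mt-Co2, mt-Co3, mt-Atp6, mt-Atp8 and mt-Nd4l were not analysed here.

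The cells were bone marrow plasma cells of BLTcre.mcl1fl/+ mice on the C57BL/6 strain. Tamoxifen switched on a human CD4 reporter in these animals, and all groups shared the genotype and the tamoxifen. The groups, with 3 libraries each, were human CD4+ cells at day 270 after tamoxifen (marked), human CD4- cells at day 270 (unmarked), human CD4+ cells at day 60 and human CD4- cells at day 60. The comparison of marked with unmarked cells on each day, and of day 270 with day 60 in each population, addresses how plasma cells in which the reporter had been switched on differ from the rest. The sources used here do not give the promoter that drives the Cre or the number of animals behind the libraries. P-values therefore measure the spread between these libraries, which may be technical. The genotype carries 1 floxed copy of Mcl1, a survival gene of the Bcl-2 family, and whether marked cells had lost it is not given, so marking and such a loss cannot be told apart. Mcl1 was at 342, 392 and 508 CPM in marked cells at day 60, against 538, 483 and 539 CPM in unmarked cells (log2 fold change -0.35 ± 0.17 SE, adjusted p = 0.784, limma). At day 270 it was at 417, 384 and 513 CPM in marked cells, against 527, 590 and 550 CPM in unmarked cells (-0.35 ± 0.17, adjusted p = 0.357). CPM are the authors' read counts scaled to the same total in every library.

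Oxidative phosphorylation passes electrons along complexes I to IV of the inner mitochondrial membrane, and the proton gradient built by complexes I, III and IV drives the ATP synthase, complex V. Complex II is encoded wholly by nuclear genes, whereas the other 4 complexes combine subunits made from both genomes. Plasma cells secrete antibody in large amounts, and mitochondrial respiration is known to contribute to their secretion and long life.

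The libraries held 7449468 to 15943547 reads on the table's genes. Plasma cell markers were present throughout, and the 8 of 8 listed markers summed to 89990 to 325847 CPM, most of it Jchain. Reads on gene models that resemble ribosomal RNA made up 22.5% of library 2 of marked cells at day 270 and 7.42% of library 2 of marked cells at day 60, against 0.231% to 2.29% in the other 10 libraries. Erythroid markers (8 of 9 in the table) summed to 107 to 350 CPM in marked cells at day 60, against 38.9 to 69.0 in unmarked cells. At day 270 they summed to 185 to 802 CPM in marked cells, against 30.2 to 169 in unmarked cells. Markers of naive and mature B cells (6 of 7) summed to 244 to 293 CPM in marked cells at day 60, against 296 to 373 in unmarked cells, and to 254 to 380 in marked cells at day 270, against 357 to 419 in unmarked cells. Macrophage markers (9 of 9) summed to 150 to 258 CPM in marked cells at day 60, against 97.4 to 298 in unmarked cells, and to 272 to 707 in marked cells at day 270, against 159 to 340 in unmarked cells. Neutrophil markers (9 of 9) ran from 1.70 to 808 CPM over the 12 libraries and T and NK cell markers (5 of 8) from 4.74 to 30.2 CPM. The part of these cells in the results below was not tested. In bulk samples, fewer cells of a type and less RNA per cell cannot be told apart.

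Messages of the mitochondrial genome, apart from mt-Nd3, stood above those of every nuclear subunit. Levels between genes are given as CPM per kilobase of annotated exon, averaged over the 12 libraries. The highest was mt-Co1, the catalytic subunit of complex IV, at 7960.1 CPM per kb, followed by mt-Cytb of complex III at 6042 and mt-Nd1 of complex I at 3819. The other complex I subunits mt-Nd2, mt-Nd5, mt-Nd4 and mt-Nd6 were at 1582, 1324, 1191 and 1094 CPM per kb. The order of the nuclear members depended on the length used. Per kb of all annotated exons the highest was the complex I subunit Ndufa1 at 461 CPM per kb, followed by Cox6a1 at 365, Cox8a at 345 and Cox4i1 at 293 CPM per kb, all of complex IV. The other length was that of the annotated transcript with the longest coding sequence, the shortest where several tied. By this length the complex III subunit Uqcrq was the highest nuclear member at 676 CPM per kb. Cox4i1 was at 610.5, Ndufa1 at 461, Cox6a1 at 448 and Cox8a at 388. In complex V, the F1 subunits Atp5a1 and Atp5b were at 257 and 192 CPM per kb of exon. By the transcript length they were at 326 and 424 CPM per kb. In complex II the membrane anchor Sdhd was at 80.7 CPM per kb by either length. Some nuclear members were near 0: Cox6b2, known as the testis isoform, had 0.552 CPM per kb, Atp5g2 had 0.782, Cox4i2 had 0.848 and Ndufb4 had 1.42. A filter on low counts kept 94 members for the tests, 87 nuclear and 7 mitochondrial. It removed Cox6b2 and mt-Nd3.

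The near absence of mt-Nd3 went with a copy of its sequence in the nuclear genome. mt-Nd3 (ENSMUSG00000064360, chrM:9459-9806, plus strand, GRCm38) had 0, 0 and 0.894 CPM in marked cells at day 60, against 0, 0 and 1.86 in unmarked cells. At day 270 this gene had 0.314, 0 and 0 CPM in marked cells, against 0, 0.192 and 0 in unmarked cells. The annotated pseudogene Gm28438 on chromosome 1 (chr1:24612775-24613119, minus strand) matched mt-Nd3 over 345 aligned bases with 1 difference. The first 120 bases of both are shown because they hold that difference, in capitals.
mt-Nd3: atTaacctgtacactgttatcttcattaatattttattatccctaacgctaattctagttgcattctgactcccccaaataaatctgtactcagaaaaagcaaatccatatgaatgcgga
Gm28438: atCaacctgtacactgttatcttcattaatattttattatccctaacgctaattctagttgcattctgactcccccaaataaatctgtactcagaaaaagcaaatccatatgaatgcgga
Of all 50-base windows of mt-Nd3, 98.0% occur unchanged in another annotated gene, so a read could rarely be placed by this gene alone. The share was 62.2% for mt-Nd4 (pseudogene Gm28439, 876 aligned bases, 0 differences) and 51.1% for mt-Co1 (Gm29216, 483 aligned bases, 1 difference). It was 8.19% for mt-Nd2 and 7.61% for mt-Nd5. No window of mt-Nd1, mt-Nd6 or mt-Cytb was shared. How the authors' counting treated reads with several matches is not given in the sources used here, so the levels of mt-Nd3, mt-Nd4 and mt-Co1 are uncertain. mt-Nd6 is transcribed from the opposite strand and its end overlaps mt-Nd5, and strand use in the counting is not given either. Among nuclear members, 6 shared at least 50% of their windows with pseudogenes, namely Atp5g2, Atp5l, Atp5h, Atp5g1, Ndufa12 and Cox7c. Their median level was 41.0 CPM per kb of the transcript with the longest coding sequence. It was 124 for the 12 that shared 10 to 50% and 107 for the 70 that shared under 10%.

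**Figure D1:**
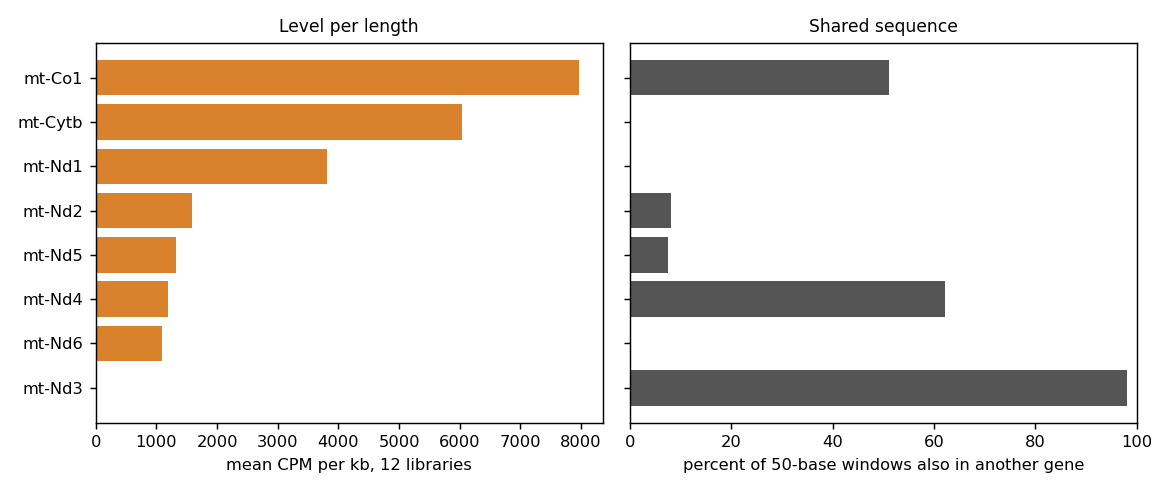
Mean level over the 12 libraries in CPM per kb (left) and percentage of 50-base windows that are also in another annotated gene (right) for the 8 mitochondrially encoded genes. mt-Nd3, with 98.0% of windows shared, lies at 0.780 CPM per kb on average, and the other 7 lie at 1094 to 7960.1.

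One member passed the test in any of the 7 comparisons. Cox6a2, the isoform of complex IV subunit 6a known from heart and skeletal muscle, was higher in marked than in unmarked cells when both days were averaged (log2 fold change 1.06 ± 0.25 SE, adjusted p = 0.0340, limma, Benjamini-Hochberg adjustment over 12704 genes, called at an adjusted p under 0.05). In that comparison 1.84% of all genes were called. At day 60 Cox6a2 had 76.4, 102 and 112 CPM in marked cells, against 25.5, 42.3 and 39.4 CPM in unmarked cells. The day 270 libraries had 134, 36.8 and 53.1 CPM in marked cells, against 50.6, 34.3 and 36.4 CPM in unmarked cells. The groups did not overlap at day 60, while at day 270 marked library 2 lay among the unmarked ones and library 1 was far above the rest. Marked cells were higher in 6 of 6 pairs of libraries that carry the same specimen number. On the single days the log2 fold change was 1.44 ± 0.35 at day 60 (adjusted p = 0.176) and 0.68 ± 0.35 at day 270 (adjusted p = 0.402). The day 270 value was 0.15 without marked library 1 and 1.07 without marked library 2. The difference between the days was -0.76 ± 0.50 (adjusted p = 0.9999). The authors' deposited table gives Cox6a2 a log2 fold change of 1.57 at day 60 with an FDR of 0.0438, the lowest FDR of any member there.

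The averaged call of Cox6a2 was close to the threshold. With a pseudocount of 0.1 in place of 0.5 its adjusted p was 0.0526. It was 0.0599 to 0.108 without any 1 of 8 libraries: marked library 2 or 3 at day 60, or any unmarked library of either day. By edgeR, DESeq2, limma-voom and limma with TMM scaling on the recovered reads it was 0.00828, 1.18e-05, 0.00395 and 0.00618. For day 60 alone, DESeq2, TMM scaling and voom gave adjusted p of 0.00121, 0.0412 and 0.0389, and edgeR gave 0.0827. The limma fit of the day 60 groups alone gave 0.0262.

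Cox6a1, the isoform found in most tissues, did not pass the test. The gene (ENSMUSG00000041697, chr5:115345642-115348981, minus strand, GRCm38) had 274, 241 and 266 CPM in marked cells at day 60, against 242, 238 and 249.9 CPM in unmarked cells. Values at day 270 were 308, 215 and 301 CPM in marked cells, against 237, 237 and 264 CPM in unmarked cells. Its log2 fold changes were 0.09 ± 0.16 and 0.14 ± 0.16, and the groups overlapped on both days. Per kb of exon, Cox6a2 made up 22.4%, 30.5% and 30.3% of the pair in marked cells at day 60, against 9.82%, 15.5% and 14.0% in unmarked cells. At day 270 the share was 31.0%, 15.0% and 15.4% in marked cells, against 18.0%, 13.0% and 12.5% in unmarked cells. The coding sequence of Cox6a2 (ENSMUSG00000030785, chr7:128205435-128206387, minus strand) and that of Cox6a1 share no 50-base window. Of 125 aligned bases 75.2% were identical, and the longest identical run was 12 bases. Coding bases 160 to 279 of Cox6a2 and 205 to 324 of Cox6a1 are shown to let the isoforms be told apart, with the 31 differing bases in capitals.
Cox6a2: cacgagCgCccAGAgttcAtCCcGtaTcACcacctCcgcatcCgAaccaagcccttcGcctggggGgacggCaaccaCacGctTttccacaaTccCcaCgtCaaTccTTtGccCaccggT
Cox6a1: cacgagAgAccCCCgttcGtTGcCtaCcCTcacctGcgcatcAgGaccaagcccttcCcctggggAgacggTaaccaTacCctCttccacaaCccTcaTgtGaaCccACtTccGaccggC

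**Figure D2:**
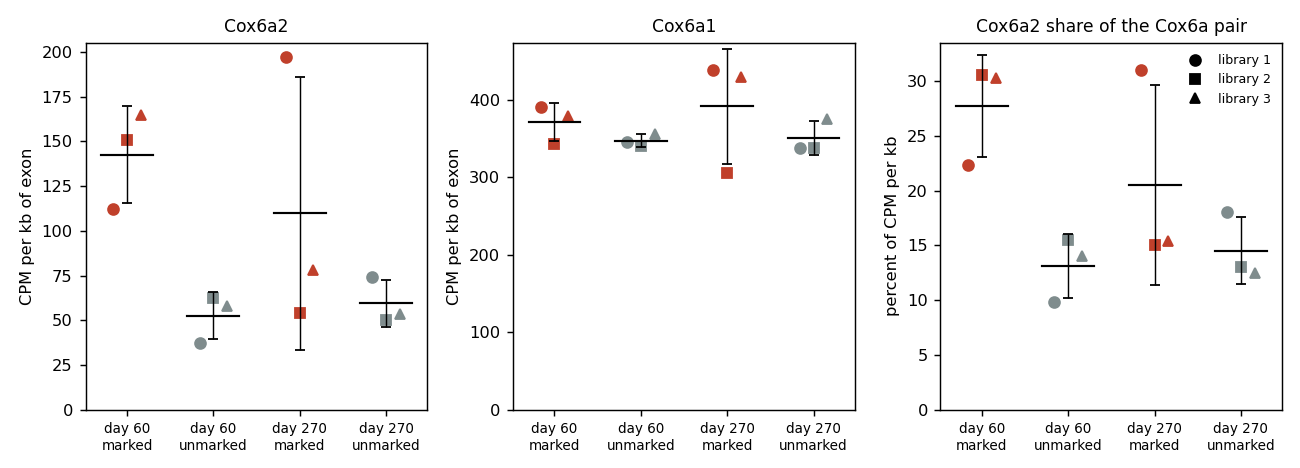
Cox6a2 and Cox6a1 in CPM per kb of exon and the Cox6a2 share of their sum in percent, by group. Markers are libraries 1 to 3, the line is the mean and the bar the SD. Cox6a2 lies higher in all 3 marked libraries than in the unmarked ones at day 60, and Cox6a1 overlaps between the groups.

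At day 60 most nuclear members lay slightly higher in marked than in unmarked cells. No member was called by limma (0 of 94, against 0.189% of all genes), and 2 had an unadjusted p under 0.05, Ndufs4 and Cox6a2, against 6.45% of all genes. DESeq2, limma-voom and limma with TMM scaling each called 1 member, Cox6a2, and edgeR called 0. The shares of all genes called by these 4 were 0.937%, 0.197%, 0.268% and 0.157%. The median log2 fold change was 0.15 over the nuclear members, against -0.13 over all genes tested. Of 87 nuclear members 70 were positive, against 36.1% of all genes. The 7 mitochondrial members had a median of 0.07, which ran from -0.10 to 0.23 with 1 library left out, and 6 of them were positive. With TMM scaling, which moved the median of all genes to -0.01, the nuclear median was 0.27 and 78 of 87 were positive. The nuclear median lay 0.28 above that of all genes with the main scaling and 0.29 above it with TMM.

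All 3 marked libraries at day 60 lay above all 3 unmarked ones in 23 of 87 nuclear members (26.4%), against 4.46% of all genes. They lay below in 2, Ndufb4 and Ndufs1, against 11.3% of all genes. The 23 included the complex I subunits Ndufa11, Ndufa2, Ndufa5, Ndufb3, Ndufb5, Ndufb7, Ndufb8, Ndufb9 and Ndufb11 with Ndufs4, Ndufs5 and Ndufs7. They also included Sdhc of complex II, Uqcr11, Uqcrb and Uqcrq of complex III, Cox6a2 and Cox6c of complex IV, Atp5e, Atp5h, Atp5j and Atp5l of complex V, and the assembly factor Ndufaf2. Without marked library 2, which held more rRNA-like reads, 41 of 87 lay above (47.1%), against 9.61% of all genes, and 2 below, against 15.2%. With totals that leave out mitochondrial and rRNA-like rows, 31 lay above (35.6%), against 5.41%, and 3 below, against 10.5%. None of the 7 mitochondrial members separated the groups in either direction.

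Several of these members show the size of the difference. They were picked after their values were seen, apart from Ndufs1 and Ndufb4. Ndufb9, an accessory subunit of the complex I membrane arm, had 243, 229 and 208 CPM in marked cells at day 60, against 187, 191 and 177 CPM in unmarked cells (log2 fold change 0.29 ± 0.16, adjusted p = 0.858). Ndufs4, an accessory subunit of the complex I matrix arm whose loss causes mitochondrial disease in humans and mice, had 86.4, 77.0 and 63.7 CPM in marked cells, against 61.5, 56.4 and 46.0 CPM in unmarked cells (0.47 ± 0.21, adjusted p = 0.730). Every marked library lay above every unmarked one in both, by margins that the test did not call. Ndufs1, the largest subunit of complex I, which carries iron-sulfur clusters, ran the other way. It had 38.5, 40.9 and 44.6 CPM in marked cells, against 55.0, 59.9 and 46.0 CPM in unmarked cells (-0.37 ± 0.21, adjusted p = 0.858). Its transcript level was low among complex I members, at 5.80 CPM per kb. Ndufb4 was near the floor, with 1.78, 2.86 and 2.14 CPM in marked cells, against 2.98, 4.12 and 3.23 CPM in unmarked cells.

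Gene length moved with these differences across the transcriptome. At a mean of at least 20 CPM, 59.8% of the 495 other genes with under 1.5 kb of exon were positive at day 60, against 44.4% of 1098 genes of 1.5 to 3 kb and 25.6% of 4153 genes of 3 kb and over. In the same classes the nuclear members were positive in 87.9% of 33, 86.4% of 22 and 64.7% of 17. In each of the 3 classes a larger share of the members than of the other genes was positive. Cytosolic ribosomal protein genes had a median of -0.06 with 27 of 78 positive. Mitochondrial ribosomal protein genes had a median of 0.03 with 48 of 79 positive. At day 270 the members were positive in 66.7%, 63.6% and 52.9% of these classes, against 45.7%, 38.0% and 25.1% of the other genes. What part length has in the members' shift was not tested.

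At day 270 the median log2 fold change of marked over unmarked was lower than at day 60, both for the nuclear members and for all genes. No member was called by limma (0 of 94, against 0.48% of all genes), and edgeR, DESeq2, voom and TMM scaling each called 0 members, against 0.283%, 2.02%, 0.394% and 0.716% of all genes. With an unadjusted p under 0.05 there were 4 members, against 14.0% of all genes: Ndufb9 was positive, and Ndufs1, Ndufaf2 and Atp5l were negative. The nuclear median was 0.03 with 50 of 87 positive, against -0.22 and 30.8% over all genes. The mitochondrial median was 0.18 with 7 of 7 positive, and ran from 0.015 to 0.28 with 1 library left out. With TMM scaling the nuclear median was 0.15 with 60 of 87 positive, against -0.11 and 40.4% over all genes. The rRNA-rich marked library 2 had the lowest nuclear sum of all 12 libraries, and without it the nuclear median was 0.22. All 3 marked libraries lay above all 3 unmarked ones in 5 of 87 nuclear members, against 3.28% of all genes. These were Ndufb9, Ndufb10 and Ndufv3 of complex I, Cox6c of complex IV and Ndufaf4. They lay below in 3, Ndufs1, Ndufv2 and Atp5l, against 12% of all genes. Without library 2 the marked libraries lay above in 28 (32.2%), against 11.9% of all genes, and below in 3, against 15.5%. With totals that leave out mitochondrial and rRNA-like rows they lay above in 15 (17.2%), against 5.98%, and below in 4, against 10.2%.

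Ndufb9 had 204, 191 and 265 CPM in marked cells at day 270, against 173, 158 and 186 CPM in unmarked cells (log2 fold change 0.34 ± 0.16, adjusted p = 0.349). Ndufs1 had 40.0, 34.5 and 39.6 CPM in marked cells, against 53.6, 60.2 and 50.2 CPM in unmarked cells (-0.52 ± 0.21, adjusted p = 0.277). Both separated the groups on both days, in opposite directions, and neither was called by limma. Averaged over days, Ndufb9 was at 0.32 ± 0.11 (adjusted p = 0.178) and Ndufs1 at -0.44 ± 0.15 (adjusted p = 0.145). Ndufb9 was called in that comparison by TMM scaling (adjusted p = 0.0415), voom (0.0421) and DESeq2 (0.00411), and by limma with totals that leave out mitochondrial and rRNA-like rows (0.0397).

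When both days were averaged, 10 of 94 members had an unadjusted p under 0.05, against 16.9% of all genes. Besides Cox6a2 these were Ndufa5, Ndufb9, Ndufs4, Ndufv3, Sdhd, Uqcr11, Uqcrq and Atp5j, which were positive, and Ndufs1, which was negative. The nuclear median was 0.10 with 61 of 87 positive, against -0.18 and 29.6% over all genes. In all 6 specimen pairs the marked library was the higher one for 8 of 87 nuclear members (9.20%), against 1.85% of all genes. These were Ndufa5, Ndufb9, Ndufb11, Ndufs4, Uqcr11, Uqcrq, Cox6a2 and Cox6c. For Ndufs1, Cox7a2l and Cox4i2, the last near the floor, it was the higher one in 0 of 6 pairs. The share of all genes for that direction was not taken. The number called differed with the tool: edgeR called 1 (Cox6a2), limma with TMM scaling 3 (with Atp5j and Ndufb9), voom 5 (with Sdhd and mt-Nd1 besides) and DESeq2 11. The shares of all genes called were 1.61%, 2.33%, 2.46% and 4.28%. The other members called by DESeq2 were Cox7a2, Ndufa11, Ndufb11, Ndufs4, Uqcr11 and Uqcrq. Apart from Cox6a2, at 1.27 there, its calls had log2 fold changes of 0.36 to 0.54, all positive.

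**Figure D3:**
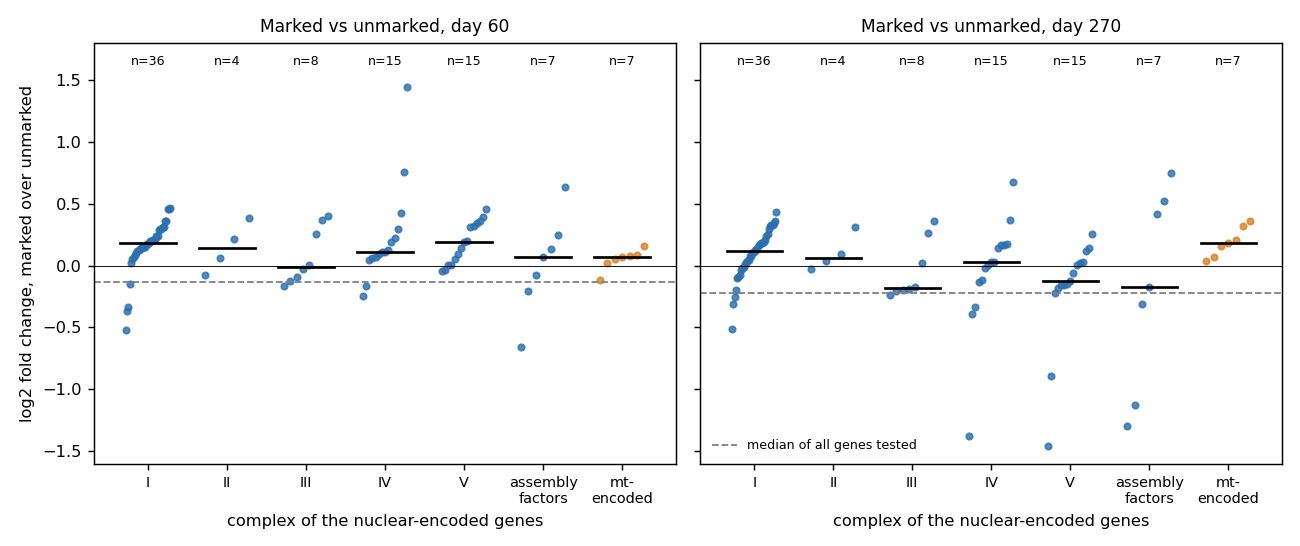
Log2 fold change of marked over unmarked cells for each member tested, by complex, at day 60 and day 270. Points are genes, black lines are medians per complex and the dashed line is the median of all genes tested. The median of complexes I to V lies above that of all genes on both days. At day 270 complexes III and V have medians of -0.19 and -0.12, and with TMM scaling these are -0.063 and 0.0012.

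The medians of the nuclear members of each complex lay above those of all genes tested, which were -0.13 at day 60 and -0.22 at day 270. At day 60 the median log2 fold change was 0.18 for complex I (32 of 36 positive), 0.14 for complex II (3 of 4), -0.01 for complex III (4 of 8), 0.11 for complex IV (13 of 15) and 0.19 for complex V (13 of 15). At day 270 it was 0.12 for complex I (26 of 36), 0.06 for complex II (3 of 4), -0.19 for complex III (3 of 8), 0.03 for complex IV (9 of 15) and -0.12 for complex V (6 of 15). Signs depended on the scaling: with TMM complex III was at 0.11 at day 60 and complex V at 0.0012 at day 270, and without marked library 2 at day 270 complexes III and V were at 0.048 and 0.051. The 7 assembly factors had medians of 0.07 (4 of 7) and -0.17 (3 of 7). Differences between complexes were not tested, since members of a complex are not replicates.

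Shares of the nuclear subunit reads do not depend on the library's total. Complex I took 31.5%, 32.5% and 31.0% in marked cells at day 60, against 30.7%, 30.4% and 29.7% in unmarked cells. At day 270 it took 31.0%, 33.1% and 31.6% in marked cells, against 29.7%, 29.9% and 30.1% in unmarked cells. All 6 marked libraries lay above all 6 unmarked ones, by a few percentage points at most. Complex V took 31.5%, 31.1% and 33.3% in marked cells at day 60, against 33.0%, 32.9% and 33.4% in unmarked cells. At day 270 it took 33.0%, 31.8% and 31.7% in marked cells, against 34.8%, 34.9% and 33.9% in unmarked cells. These groups overlapped at day 60 and not at day 270. Complex III took 12.2%, 10.9% and 11.1% in marked cells at day 60, against 12.10%, 12.03% and 12.03% in unmarked cells, and 10.3%, 10.7% and 11.0% in marked cells at day 270, against 11.4%, 10.8% and 11.7% in unmarked cells. The shares add up to the whole, so a higher one makes others lower, and they were singled out after the values were seen.

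**Figure D4:**
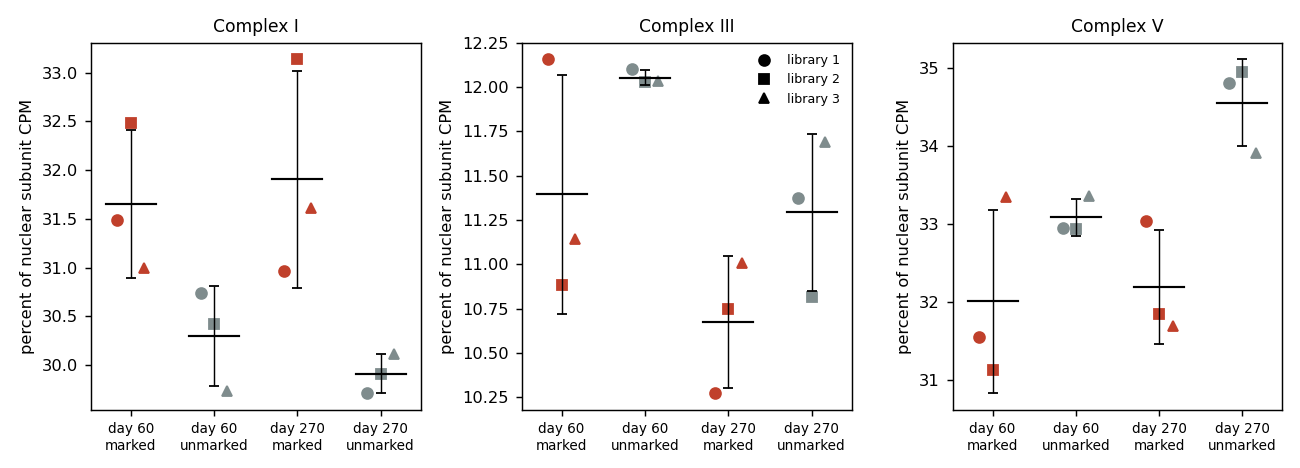
Share of nuclear subunit CPM (percent) taken by complexes I, III and V in each library, by group. Lines are means, bars SD, and the vertical axes do not start at 0. Complex I is at 31.0% to 33.1% in the 6 marked libraries and at 29.7% to 30.7% in the 6 unmarked ones.

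No subunit of complexes II and III was called by limma. Averaged over days, Sdhd was called by voom (adjusted p = 0.0465) and DESeq2 (0.00977), and DESeq2 also called Uqcr11 (0.0195) and Uqcrq (0.0493). Sdha, the flavoprotein of succinate dehydrogenase, had 170.0, 201 and 225 CPM in marked cells at day 60, against 186, 202 and 239 CPM in unmarked cells. Sdhb, its iron-sulfur subunit, had a log2 fold change of 0.06 ± 0.23 at day 60 and -0.03 ± 0.23 at day 270. Sdhd had 130.3, 87.4 and 128 CPM in marked cells at day 60, against 90.5, 87.0 and 83.8 CPM in unmarked cells (0.38 ± 0.21). On day 270 there were 128, 90.3 and 105 CPM in marked cells, against 101, 92.1 and 67.7 CPM in unmarked cells, with an averaged change of 0.35 ± 0.15 (adjusted p = 0.246). Marked library 2 was the low one on both days. The other membrane anchor, Sdhc, had 185, 158 and 154 CPM in marked cells at day 60, against 142, 142 and 142 CPM in unmarked cells (0.21 ± 0.19). In complex III, the Rieske protein Uqcrfs1 had 241, 135 and 153 CPM in marked cells at day 60, against 184, 197 and 192 CPM in unmarked cells (-0.16 ± 0.20), so its marked libraries lay on both sides of the unmarked ones. Uqcrb had 31.8, 30.5 and 35.6 CPM in marked cells, against 28.3, 25.1 and 22.5 CPM in unmarked cells (0.36 ± 0.24).

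Members of complex IV other than Cox6a2 were not called by limma, and DESeq2 called Cox7a2 averaged over days (log2 fold change 0.43, adjusted p = 0.0492). Cox4i1, the usual isoform of subunit 4, had 535, 468 and 492 CPM in marked cells at day 60, against 473, 501 and 411 CPM in unmarked cells (0.11 ± 0.16). Cox4i2, the isoform known from lung and induced by low oxygen, had 0.324, 0 and 0 CPM in marked cells at day 60, against 0.878, 0 and 0 in unmarked cells. At day 270 this gene had 1.44, 0 and 0 CPM in marked cells, against 2.21, 0.481 and 2.68 in unmarked cells. Cox5a, Cox5b, Cox6b1 and Cox8a had log2 fold changes of 0.04, 0.11, 0.12 and 0.07 at day 60. Cox7a2 had 0.37 ± 0.19 at day 270, whereas Cox7a2l had -0.16 ± 0.19 at day 60 and -0.34 ± 0.19 at day 270. Ndufa4, now counted as a complex IV subunit, was at 148 CPM per kb and its paralog Ndufa4l2 at 7.11. Ndufa4l2 had 5.74, 15.0 and 10.5 CPM in marked cells at day 60, against 5.09, 6.18 and 5.44 CPM in unmarked cells (0.76 ± 0.54, adjusted p = 0.922), and the groups overlapped. The muscle isoform Cox7a1, Cox8b and Cox8c were not analysed here.

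In complex V the F1 pair Atp5a1 and Atp5b, which holds the catalytic sites, had log2 fold changes near 0. Atp5a1 had 820.2, 636 and 828 CPM in marked cells at day 60, against 810.1, 779.8 and 731 CPM in unmarked cells (-0.03 ± 0.16). Atp5b had log2 fold changes of -0.05 ± 0.16 at day 60 and -0.16 ± 0.16 at day 270. Atp5e and Atp5l, picked after their values were seen, are given on both days. Atp5e, the epsilon subunit of F1, had 271, 249.6 and 273 CPM in marked cells at day 60, against 233, 219 and 177 CPM in unmarked cells (0.34 ± 0.18). The day 270 libraries had 215, 148 and 171 CPM in marked cells, against 185, 182 and 235 CPM in unmarked cells. Atp5l, subunit g of the membrane part, had 16.8, 12.8 and 18.1 CPM in marked cells at day 60, against 12.5, 11.2 and 10.5 CPM in unmarked cells. Values at day 270 were 11.0, 6.18 and 5.52 CPM in marked cells, against 13.2, 11.3 and 17.9 CPM in unmarked cells. Every marked library of Atp5l lay above the unmarked ones at day 60 and below them at day 270, a difference of -1.34 ± 0.54 between the days that was not called (adjusted p = 0.9999). Most of its transcript is shared with pseudogenes.

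The interaction of marking and day was not called for any member by limma (0 of 94, against 0.0% of all genes), nor by edgeR, DESeq2, voom or TMM scaling. An unadjusted p under 0.05 was reached by 4 members, Ndufv2, Ndufaf2, Atp5e and Atp5l, against 3.05% of all genes. Ndufaf2, a complex I assembly factor, had 15.8, 12.6 and 19.5 CPM in marked cells at day 60, against 12.5, 9.44 and 8.40 CPM in unmarked cells. On day 270 there were 8.91, 2.28 and 14.4 CPM in marked cells, against 15.5, 13.7 and 17.4 CPM in unmarked cells. The log2 fold changes were 0.63 and -1.12, and their difference was -1.76 ± 0.71 (adjusted p = 0.9999). The lowest of these values came from the rRNA-rich library 2.

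No mitochondrial gene was called by limma in any comparison, and none had an unadjusted p under 0.05 between marked and unmarked cells on either day or averaged. mt-Co1 had 12519, 12949.8 and 13477 CPM in marked cells at day 60, against 9707, 14262 and 13649 CPM in unmarked cells (0.07 ± 0.24). At day 270 it had 13226, 11348 and 13222 CPM in marked cells, against 8470.1, 12005 and 12744 CPM in unmarked cells (0.20 ± 0.24). The unmarked library 1 was the lowest on both days. mt-Nd1, which shares no window with other genes, had 3625, 4304 and 4074 CPM in marked cells at day 60, against 2915, 4181 and 3767 CPM in unmarked cells (0.16 ± 0.20). The day 270 libraries had 3893, 3383 and 4473 CPM in marked cells, against 2418, 3340.3 and 3478 CPM in unmarked cells (0.36 ± 0.20, adjusted p = 0.434). Marked cells were higher for mt-Nd1 in 6 of 6 specimen pairs, and averaged over days it was called by voom (log2 fold change 0.38, adjusted p = 0.0463) and DESeq2 (0.38, adjusted p = 0.0265). mt-Cytb had 6099.8, 7781 and 7877 CPM in marked cells at day 60, against 5564, 7785 and 7679 CPM in unmarked cells. The marked and unmarked libraries overlapped in each of these genes on both days. For mt-Nd2, mt-Nd4, mt-Nd5 and mt-Nd6 the log2 fold changes were 0.08, 0.02, -0.12 and 0.08 at day 60 and 0.16, 0.32, 0.07 and 0.04 at day 270.

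The 8 mitochondrial genes summed to 26955, 32256 and 32649 CPM in marked cells at day 60, against 23576, 32871 and 32118 CPM in unmarked cells. At day 270 they summed to 30166, 26217 and 33954 CPM in marked cells, against 20598, 28901 and 29312 CPM in unmarked cells. The 88 nuclear members summed to 11944, 10235 and 11221 CPM in marked cells at day 60, against 10647, 10683 and 9552 CPM in unmarked cells. At day 270 they summed to 11783, 8700.4 and 11501 CPM in marked cells, against 10526, 9745 and 11157 CPM in unmarked cells. Both CPM sums overlapped between marked and unmarked cells on both days. With totals that leave out mitochondrial and rRNA-like rows, the nuclear sum overlapped on neither day. It was 12319, 11454 and 11650 in marked cells at day 60, against 11055, 11110 and 10109 in unmarked cells. At day 270 it was 12199, 11623 and 11934, against 10824, 10108 and 11613. The mitochondrial sum on these totals overlapped at day 60. At day 270 it was 31233, 35023 and 35232, against 21181, 29975 and 30510, without overlap. The ratio of the mitochondrial to the nuclear sum was 2.26, 3.15 and 2.91 in marked cells at day 60, against 2.21, 3.08 and 3.36 in unmarked cells. At day 270 it was 2.56, 3.01 and 2.95 in marked cells, against 1.96, 2.97 and 2.63 in unmarked cells.

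The ratio separated libraries by their number and overlapped between the populations. In the libraries numbered 1, which come from all 4 groups and carry neighbouring library numbers in the labels, it was 1.96 to 2.56 (median 2.24). In the libraries numbered 2 and 3 it was 2.63 to 3.36 (median 2.99), with no overlap. Among those numbered 2 and 3, library numbers and marking go together, so they cannot be told apart there. Within the libraries numbered 1, the nuclear median log2 fold change of marked over unmarked was 0.22 at day 60 and 0.21 at day 270, against -0.28 and -0.10 over all genes. Within the libraries numbered 2 and 3 it was 0.10 and -0.09, against -0.05 and -0.27 over all genes. The mitochondrial medians were -0.01 at day 60 and 0.48 at day 270 in the first set, and 0.08 and 0.03 in the second. For Cox6a2 the log2 difference was 1.56 at day 60 and 1.40 at day 270 in the first set, and 1.38 and 0.32 in the second.

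Correlations across the libraries were highest between mitochondrial genes. Over the 12 libraries, the median Pearson correlation of log2 CPM was 0.823 (0.519 to 0.951) for the 21 pairs of mitochondrial genes and 0.361 for the 3741 pairs of nuclear genes. It was 0.0521 for the 609 pairs of 1 gene from each. These values are a description, since all points share the libraries, their totals and the groups. No correlation was taken for pairs of other genes.

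**Figure D5:**
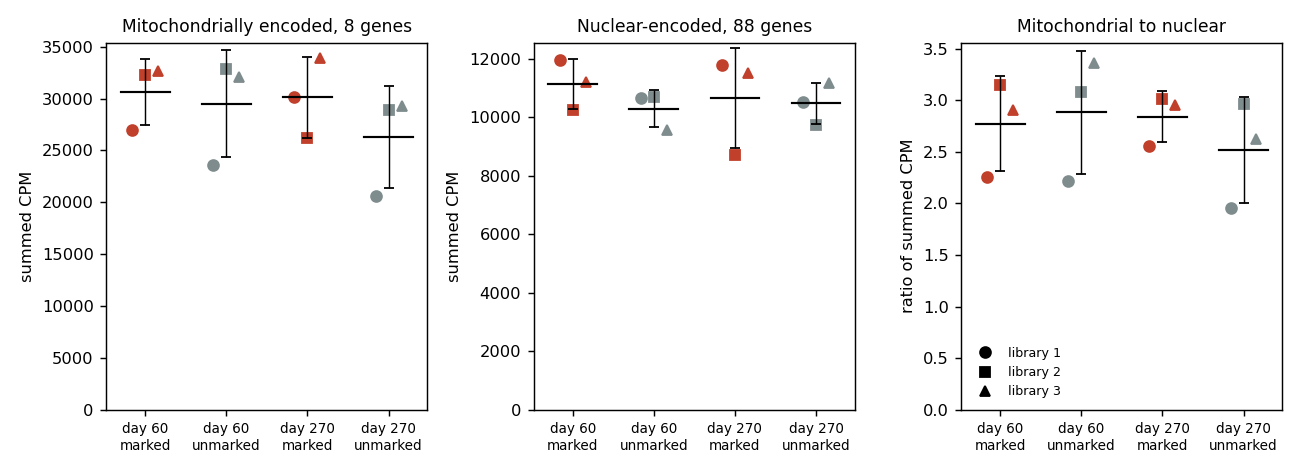
Sum of the 8 mitochondrial and the 88 nuclear members in CPM, and the ratio of the sums, by group. Markers are libraries 1 to 3, lines are means and bars SD. In the ratio, library 1 is the lowest of each group and the groups overlap.

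Between day 270 and day 60 no member was called by limma. These comparisons use the same libraries as those of marking. In marked cells, 0 of 94 were called, against 0.0315% of all genes, and 6 had an unadjusted p under 0.05, against 9.64% of all genes. Ndufaf4 and Sdha were positive and Ndufaf2, Atp5e, Atp5l and Atp5o negative. DESeq2 called 1, Atp5e (log2 fold change -0.66, adjusted p = 0.0300), and edgeR, voom and TMM scaling called 0. The shares of all genes were 0.952% for DESeq2, 0.0157% for edgeR, 0.0% for voom and 0.00787% for TMM scaling. The nuclear median was -0.12 with 28 of 87 positive, against 0.02 and 51.8% over all genes, and the mitochondrial median was -0.04 with 3 of 7 positive. With TMM scaling the nuclear median was -0.24 with 13 of 87 positive, against -0.09 and 41.8% over all genes, and 0 of 7 mitochondrial members were positive. In unmarked cells 0 of 94 were called, against 0.0% of all genes, and 0 had an unadjusted p under 0.05, against 2.98% of all genes. edgeR, DESeq2, voom and TMM scaling also called 0 members, and of all genes DESeq2 called 0.063% and the others 0.0%. The nuclear median was 0.01 with 45 of 87 positive, against 0.12 and 66.5% over all genes, and turned to -0.11 with 25 of 87 positive, against 0.0063 and 50.9%, with TMM scaling. The mitochondrial median was -0.16 with 0 of 7 positive. Averaged over both populations 0 of 94 were called, against 0.189% of all genes, with 3 at an unadjusted p under 0.05, against 8.53%, and the other tools called 0.

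Atp5e was lower in all 3 marked libraries at day 270 than in those at day 60 (limma -0.59 ± 0.18, adjusted p = 0.298), with the values given above. All 3 marked libraries at day 270 lay below all 3 at day 60 in 9 of 87 nuclear members, against 4.04% of all genes: Atp5e, Atp5h, Atp5l, Cox6b1, Cox6c, Ndufa2, Ndufa7, Ndufc1 and Ndufv2. They lay above in 3, Ndufaf3, Ndufaf4 and Sdha, against 6.46%. Sdha had 241, 247 and 286 CPM in marked cells at day 270, against the 170.0, 201 and 225 CPM at day 60 (0.38 ± 0.16, adjusted p = 0.457). In unmarked cells it had 237, 257 and 232 CPM at day 270, against the 186, 202 and 239 CPM at day 60, a change of 0.22. The complex I assembly factor Ndufaf4 had 24.2, 27.4 and 26.3 CPM in marked cells at day 270, against 18.5, 13.7 and 18.4 CPM at day 60 (0.62 ± 0.29, adjusted p = 0.511). Another, Ndufaf3, had 34.9, 32.1 and 38.1 CPM in marked cells at day 270, against 23.7, 23.8 and 28.5 CPM at day 60 (0.46 ± 0.26). In unmarked cells, day 270 lay above day 60 without overlap in 7 of 87 nuclear members, against 10.4% of all genes, and below in 1, Cox6c, against 2.39%. The 7 were Atp5a1, Atp5b, Atp5j, Atp5sl, Ndufa4l2, Ndufaf2 and Ndufs3.

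The rest of the pathway was read from 11 gene lists. Of the 213 tested genes of these lists limma called 1 at day 270 (0.469%, against 0.48% of all genes) and 2 averaged over days (0.939%, against 1.84% of all genes), and 0 in the other 5 comparisons. They were Myc and Mrpl17. Of all genes tested, 36.1% were positive for marked over unmarked cells at day 60 and 30.8% at day 270, with the negative medians given above. Of the assembly factors, 5 of 9 were positive at day 60 and 4 of 9 at day 270 for complex I (those outside the Ndufaf symbols), 2 and 1 of 4 for complex II, 5 and 2 of 7 for complex III with cytochrome c1, 15 and 8 of 22 for complex IV, and 4 and 1 of 6 for complex V with its inhibitor. The electron carriers and coenzyme Q genes had medians of 0.17 at day 60 (11 of 17 positive) and -0.36 at day 270 (7 of 17). Genes of mitochondrial DNA upkeep and transcription had medians of -0.07 (9 of 25) and -0.40 (4 of 25). Mitochondrial ribosomal proteins had 0.03 (47 of 76) and -0.08 (30 of 76), import genes -0.03 (10 of 22) and -0.09 (8 of 22), and nucleotide exchange genes -0.13 (3 of 8) and -0.20 (1 of 8). Nuclear regulators of respiration had -0.28 (3 of 17) and -0.27 (3 of 17). Among them, Myc, a transcription factor for growth genes that include mitochondrial ones, was lower in marked cells at day 270. It had 1.82, 1.88 and 5.63 CPM in marked cells, against 19.2, 17.9 and 16.7 CPM in unmarked cells (-2.51 ± 0.49, adjusted p = 0.0295), and averaged over days the change was -1.75 ± 0.35 (adjusted p = 0.0130). Mrpl17, of the large subunit of the mitochondrial ribosome, was higher in marked cells when averaged over days (0.59 ± 0.14, adjusted p = 0.0290).

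Promoters of the nuclear members were scanned for 3 motifs of factors known to bind such genes. A RefSeq promoter (GRCm38.p6, from 250 bases before to 50 after the start) was found for 73 of the 88. The core of the nuclear respiratory factor NRF1, GCATGCGC, occurred on either strand in 12 of the 73 (16.4%), against 3.05% of the promoters of 27025 genes. Those 12 were Ndufa6, Ndufa8, Ndufa11, Ndufaf4, Ndufaf5, Sdhb, Uqcrc1, Uqcr11, Cox6a1, Atp5g2, Atp5k and Atp5l. The YY1 core AAGATGGC occurred in 15.1% of members, against 3.19% of all promoters, and the ETS core CCGGAAGT in 6.85%, against 4.31%. A match is a description of the sequence, not of binding. The promoters of Ndufa11 and Cox6a1 are shown with the NRF1 core in capitals, where the matches of both strands overlap. They are taken as an example with groups that did not overlap at day 60 and one with groups that did. Ndufa11 had 126, 109 and 115 CPM in marked cells at day 60, against 84.0, 95.5 and 92.1 CPM in unmarked cells (0.36 ± 0.20, adjusted p = 0.858). Its promoter lies at chr17:56717512-56717811 (plus strand) and that of Cox6a1 at chr5:115348909-115349208 (minus strand), both written along the gene's strand.
Ndufa11: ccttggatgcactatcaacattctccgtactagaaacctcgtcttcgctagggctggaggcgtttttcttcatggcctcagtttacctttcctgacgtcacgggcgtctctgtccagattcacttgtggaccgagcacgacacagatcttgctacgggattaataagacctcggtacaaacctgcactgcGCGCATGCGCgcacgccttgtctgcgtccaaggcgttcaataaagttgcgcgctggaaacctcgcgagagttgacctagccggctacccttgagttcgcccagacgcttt
Cox6a1: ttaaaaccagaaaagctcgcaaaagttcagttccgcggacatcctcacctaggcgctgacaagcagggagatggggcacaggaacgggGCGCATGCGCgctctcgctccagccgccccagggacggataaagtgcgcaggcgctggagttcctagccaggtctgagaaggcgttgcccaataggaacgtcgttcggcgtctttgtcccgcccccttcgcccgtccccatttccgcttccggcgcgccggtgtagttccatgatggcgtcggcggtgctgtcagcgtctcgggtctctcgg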

How the data were processed

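The labels name Qiagen RNeasy Micro kits for isolation and a TruSeq RNA library kit. The submitters' processing notes name GRCm38 and limma, and the sources used here do not give the aligner, the counter or the annotation. The authors deposited CPM per library in their comparison tables, with log2 fold changes relative to the day 60 unmarked group, a p-value and an FDR for each gene, and raw counts of 230 genes in a table for clustering. Each CPM column times a single factor gave whole reads (151342 values of under 1000 reads, each within 0.05 of a whole number), and the 2760 deposited counts were matched. Totals cover the table's genes and not the full depth.

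Since the whole table is in CPM, limma 3.58.1 (R 4.3.3) was run on log2(CPM + 0.5) with a trended prior, which understates changes of low genes. The fit held 12 libraries in 4 groups, with 8 residual degrees of freedom and no block. Genes were filtered by filterByExpr of edgeR 4.0.16 at a minimum count of 10, which left 12704 and took out 1515. P-values were adjusted by Benjamini-Hochberg over these genes, and calls were made at 0.05. Only the main limma fit was tested on simulated data, with changes larger than most of those reported here. Alternatives were TMM scaling, totals without mitochondrial and rRNA-like rows, other pseudocounts and filters, edgeR, DESeq2 1.42.0, limma-voom, a specimen block and leaving out libraries. Exon lengths, transcripts and pseudogenes came from GENCODE M21, which holds 14165 of the 14219 identifiers.

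Members named are those called in any comparison, the mitochondrial genes, the highest and lowest nuclear member per kb in each complex, the 3 largest rises and falls in each simple comparison, paralogous isoforms and catalytic subunits. Other members, named for groups that do not overlap or for an unadjusted p, were chosen after their values were seen. The members and lists were chosen with earlier results of these data known.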

Additional observations from a re-analysis of the deposited data

Results flagged for a closer look

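In 2 mitochondrial transfer RNA rows outside the members the marked libraries of 1 day lay above the unmarked ones. Of all genes tested, 4.46% did so at day 60 and 3.28% at day 270. mt-Tp averaged 24.9 CPM in marked cells at day 270, against 15.1 CPM in unmarked cells (24.5, 29.5 and 20.6 against 14.5, 14.7 and 16.2; limma log2 fold change 0.69 ± 0.30, adjusted p = 0.310). At day 60 it had 27.1, 19.0 and 27.5 CPM in marked cells, against 15.0, 17.3 and 20.9 CPM in unmarked cells, and the groups overlapped. mt-Tn was near the floor, and the low-count filter removed it, so it was not tested. It averaged 0.611 CPM in marked cells at day 60, against 0.0747 CPM in unmarked cells. At day 270 it had 0.690, 0 and 0 CPM in marked cells, against 0.184, 0 and 0 in unmarked cells, again with overlap. The mitochondrial ribosomal RNA rows followed library 2 of the marked cells at day 270. mt-Rnr1 had 288, 2202 and 249 CPM in marked cells, against 158, 210.4 and 328 CPM in unmarked cells, and mt-Rnr2 had 310.3, 3029 and 224 CPM in marked cells, against 221, 259 and 408 CPM in unmarked cells.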

How the results depend on the processing

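Of the counts of called members and the medians, 343 values under other settings stayed close to those reported and 29 moved. At day 60, TMM scaling, DESeq2, voom, a specimen block, a fit of the 2 day 60 groups alone, and a fit without day 270 marked libraries 2 and 3 each called 1 member, Cox6a2, in place of 0. Leaving out 1 library gave 0 to 1. At day 270 the fit without marked libraries 2 and 3 called 1, Cox6a2 (log2 fold change 1.74, adjusted p = 0.0319), where the marked group is 1 library assumed to vary like the other groups. Between the days in marked cells DESeq2 called 1. Averaged over days, limma called 1 member, TMM scaling 3, totals without mitochondrial and rRNA-like rows 2, a pseudocount of 0.1 gave 0, DESeq2 11, voom 5, and leaving out 1 library 0 to 1. The nuclear median at day 270 (0.03) was 0.19 by DESeq2, 0.18 by voom and 0.22 without marked libraries 2 and 3, and 0.22 without library 2 of marked cells on both days, an alternative chosen after seeing the data. It ranged from -0.086 to 0.22 with 1 library left out. The nuclear median of day 270 over day 60 in marked cells (-0.12) was 0.10 without marked libraries 2 and 3 at day 270. Among the medians of marking on each day and of day in each population, those that turned sign with 1 library left out were this one (-0.20 to 0.034), the nuclear one at day 270 above, the nuclear one of day 270 over day 60 in unmarked cells (-0.046 to 0.062), and the mitochondrial ones at day 60 (-0.10 to 0.23) and of day 270 over day 60 in marked cells (-0.14 to 0.084). The last was 0.051 with totals without mitochondrial and rRNA-like rows and 0.14 without library 2 of marked cells on both days. The nuclear one of day 270 over day 60 in unmarked cells was -0.11 to -0.0049 by TMM scaling, edgeR, DESeq2, voom and those totals. The mitochondrial one at day 60 was -0.0078 without library 2 of marked cells on both days. Over all genes, limma called 24 at day 60 and DESeq2 119, and 61 and 256 at day 270. The cause was not tested.

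Same-numbered marked and unmarked libraries of a day had residual correlations of -0.0109 to 0.115 in the 6 pairs. Marked and unmarked libraries of a day with different specimen numbers had -0.104 to 0.0301. These ranges overlapped, and the main fit did not take the specimen numbers as pairs. With the specimen as a block, limma called Cox6a2 at day 60 (adjusted p = 0.0261) and averaged over days (adjusted p = 0.00761). No other member was called in the comparisons fitted with this block. The comparisons of day 270 with day 60 were not fitted with it. The tests have 3 libraries a group, and the low members, such as Cox6b2 and Cox4i2, are limited by depth. Atp5g2, also low, shares at least 50% of its windows with pseudogenes, and the part of this in its level was not tested.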
